A study of Rattus norvegicus with 8 samples.

Results

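The miR-23/27/24 clusters are a pair of paralogous microRNA (miRNA) clusters whose products were measured here in pancreatic islets of Sprague Dawley rats. Islets hold the insulin-secreting beta cells, whose maturation is the question named in the title of the series. All non-control features of the array named for rno-miR-23a, rno-miR-23b, rno-miR-27a, rno-miR-27b or rno-miR-24, or for a * product of their hairpins, were taken. This gave 11 of the 677 rat miRNAs on the array, read by 30 probes and 220 features per array. In the naming of the array a * product is the less abundant arm of its hairpin. The prefix rno, for the rat, is dropped from here on.

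Total RNA of islets was hybridised to 1-colour Agilent miRNA arrays, 4 from adult rats (males 3 months old) and 4 from P10 rats (10 days old). The labels call the islets of both ages control and give neither a treatment nor a genotype. The arrays are labelled as biological replicates, with no number of animals behind each. Sex is stated for the adult rats alone, so a difference in sex between the ages cannot be told apart from age. All 8 arrays lay on 1 slide and in 1 scan, with the 4 adult arrays in 1 line of the slide and the 4 P10 arrays in the other, so slide line and age cannot be told apart either.

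Each cluster is known to be transcribed as 1 precursor that is cut into a miR-23, a miR-27 and a miR-24. A mature miRNA finds its target messenger RNAs mainly through its seed, the bases near its 5′ end. The clusters are best known from blood vessels, muscle and blood cells. miR-23 is known to repress glutaminase, miR-27 to restrain fat cell formation through PPAR-gamma, and miR-24 has been described in islets as a regulator of insulin production and beta-cell proliferation.

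The mature sequences show how little separates the a from the b products. They are given 5′ to 3′ from RefSeq (build GRCr8), with the seed, bases 2 to 8, in capitals.
miR-23a: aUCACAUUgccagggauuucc
miR-23b: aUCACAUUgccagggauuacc
miR-27a: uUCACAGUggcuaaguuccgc
miR-27b: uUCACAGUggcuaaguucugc
miR-24: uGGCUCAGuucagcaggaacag
miR-23a and miR-23b share their seed and differ at 1 of 21 bases, by the substitution U19A (the base of miR-23a, its position from the 5′ end, then the base of miR-23b). miR-27a and miR-27b also share their seed and differ at 1 of 21 bases, by C19U. Among the 693 mature rat miRNAs of the RefSeq table no others carried the seed of miR-23, of miR-27 or of miR-24. How far a probe for one paralogue also captures the other was not tested, and the letters of the probes were not used here.

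miR-24 comes from both clusters. Its copies lie at Mir24-2 in the a cluster, on chromosome 19 of GRCr8 beside Mir27a and Mir23a, and at Mir24-1 in the b cluster, on chromosome 17 beside Mir27b and Mir23b. The a hairpins lie between the protein-coding genes Zswim4 and Nanos3 and overlap no annotated gene, while the b hairpins lie within the span of Aopep, an aminopeptidase gene. Mir24-1 also overlaps the protein-coding gene Fancc and the miRNA gene Mir3074, and the brightest probe of miR-3074 passed background on 0 of 8 arrays. The miR-24 hairpins are shown with mature miR-24 in capitals, on the minus strand at chr19:40859455-40859562 and chr17:1818669-1818736.
Mir24-2: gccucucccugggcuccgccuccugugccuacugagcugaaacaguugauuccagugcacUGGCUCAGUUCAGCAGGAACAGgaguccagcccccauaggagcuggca
Mir24-1: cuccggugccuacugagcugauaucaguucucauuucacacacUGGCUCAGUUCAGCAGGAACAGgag
The capitals are the same in both, so the signal of miR-24 sums the clusters, and of the mature products only those of the opposite arm tell them apart. That arm is miR-24-2* from the a cluster and miR-24-1* from the b cluster.
miR-24-2*: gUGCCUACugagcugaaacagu
miR-24-1*: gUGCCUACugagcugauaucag
These 2 arms share their first 16 of 22 bases, and their seeds are again in capitals. A RefSeq mature sequence was matched to 10 of the 11 members by name, miR-23a* being the other one.

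Signals are given as log2 of a probe's background-subtracted signal over the 75th percentile of the 278 probes that were well above background on all 8 arrays, so 0 stands for a probe as bright as that percentile. That percentile was 1284 to 1677 units of signal on the adult arrays and 388, 440, 989 and 1690 on P10 replicates 1 to 4. Between 218 and 259 miRNAs were well above background per adult array and between 188 and 238 per P10 array. The islet endocrine markers miR-375 and miR-7a were well above background on all 8 arrays. The summed level of 6 such markers was 5.46 to 5.65 in adult and 3.57, 4.19, 4.68 and 4.70 on P10 replicates 1 to 4. P10 replicates 1 and 2 stood apart from the other arrays as the dimmest, with the highest summed level of the acinar markers miR-216a and miR-217 (-0.35 and -0.66, against -4.09 and -4.51 on P10 replicates 3 and 4 and -2.36 to -1.33 in adult).

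All 5 major products, miR-23a, miR-27a, miR-23b, miR-27b and miR-24, were well above background on all 8 arrays with both of their probes. With this percentile scaling all 5 rose in adult islets relative to the bulk of measured miRNAs, and miR-23b rose more than miR-23a. For miR-27a the rise relative to that bulk did not hold under every scaling, as given below. Of the 238 miRNAs tested 27.3% were called higher in adult (limma, adjusted p under 0.05), against 5 of these 5, and the 2 ages did not overlap for any of the 5. With the same scaling 25.6% of all tested miRNAs lay without overlap and higher in adult. The differences of the 5 ran from 0.43 to 1.31 with a median of 0.91, and the median over all tested miRNAs was -0.01. The members were chosen with these results known, so their share is a description.

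**Figure D1:**
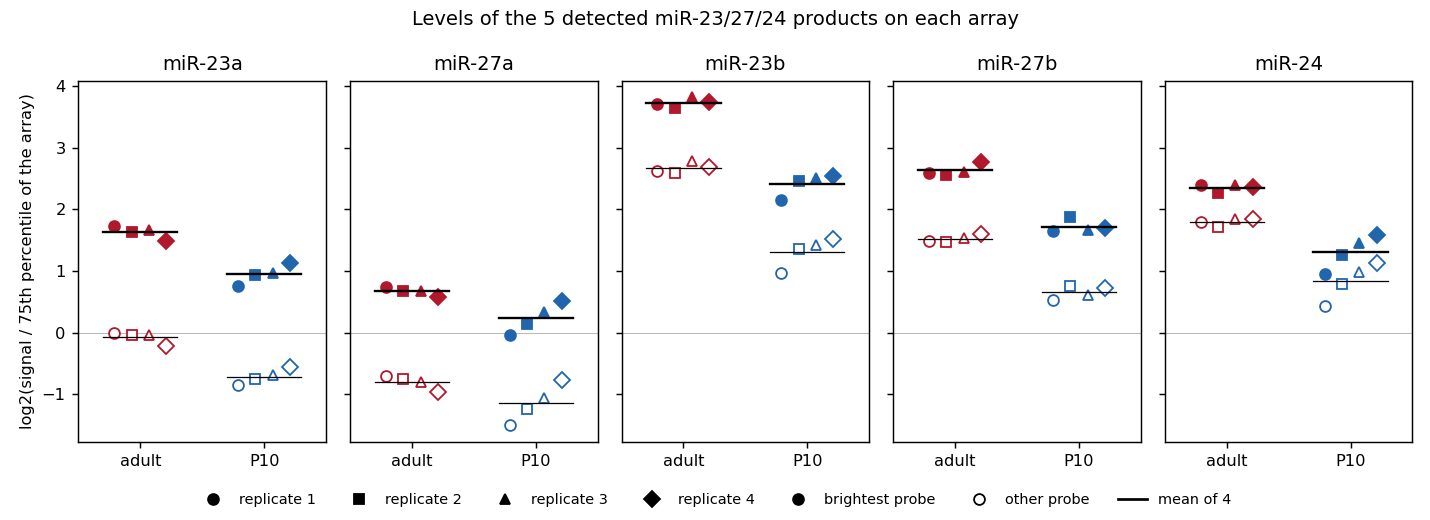
Log2 signal over the array's 75th percentile (y axis) on each adult and each P10 array (x axis) for the 5 major products, with a symbol per replicate, filled for the brightest and open for the other probe of each miRNA, and a line at the mean of 4. All 5 miRNAs lie higher on the 4 adult arrays with the brightest probe, and miR-27a has the smallest difference (0.43 with that probe).

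miR-23b, from the b cluster, had the largest difference of the 5. It stood at 3.71, 3.65, 3.81 and 3.75 on adult replicates 1 to 4, against 2.16, 2.46, 2.51 and 2.53 on P10 replicates 1 to 4. Every adult array lay above every P10 array, and P10 replicate 1 was the lowest. It rose 2.48-fold, which is 1.31 on the log2 scale with an SE of 0.12 (4 arrays per age, adjusted p in limma 8.39e-05). miR-27b, its neighbour in the same precursor, stood at 2.59, 2.56, 2.61 and 2.77 in adult, against 1.64, 1.87, 1.66 and 1.70 in P10. Its ages were again apart, and here P10 replicate 2 was the highest of its group. It rose 1.88-fold, a log2 difference of 0.91 with an SE of 0.10 (adjusted p in limma 0.000232, 4 arrays per age).

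miR-23a, from the a cluster, stood at 1.74, 1.63, 1.67 and 1.49 in adult, against 0.76, 0.94, 0.96 and 1.12 in P10. All adult arrays were higher, with adult replicate 4 the lowest of its age and P10 replicate 4 the highest of its own. It rose 1.61-fold, a log2 difference of 0.69 with an SE of 0.11 (adjusted p in limma 0.00170, 4 arrays per age). miR-27a stood at 0.73, 0.68, 0.68 and 0.58 in adult, against -0.029, 0.13, 0.34 and 0.51 in P10. The gap between adult replicate 4 and P10 replicate 4 was the smallest between ages among the 5, and P10 replicates 1 and 2 were the lowest arrays. It rose 1.35-fold, a log2 difference of 0.43 with an SE of 0.14 (adjusted p in limma 0.0336, 4 arrays per age). Without P10 replicate 1 (0.34, adjusted p = 0.0616), P10 replicate 2 (0.40, 0.0852) or any 1 adult array (0.41 to 0.46, 0.0534 to 0.0873) the call of miR-27a was lost.

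miR-24, which both clusters make, stood at 2.39, 2.26, 2.40 and 2.36 in adult, against 0.95, 1.25, 1.45 and 1.58 in P10. The adult arrays lay close together (SD 0.062, n = 4) and the P10 arrays were spread more widely (SD 0.27, n = 4), with replicate 1 lowest. It rose 2.06-fold, a log2 difference of 1.04 with an SE of 0.15 (adjusted p in limma 0.000753, 4 arrays per age). Its difference lay between those of miR-23a and miR-23b, and above those of both miR-27a and miR-27b.

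The difference read by the other probe of each miRNA was 1.35 for miR-23b, 0.87 for miR-27b, 0.64 for miR-23a, 0.34 for miR-27a and 0.96 for miR-24. For 4 of them the 2 ages were apart with this probe too, a share not computed for the other probes of all miRNAs. For miR-27a the ages overlapped, since adult replicates 3 and 4 (-0.81 and -0.96) lay below P10 replicate 4 (-0.77). The 8 to 10 usable features of a probe varied on 1 array with a median coefficient of variation of 5.44% to 7.91% over these miRNAs.

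As unscaled signal the picture depended on the product. miR-23b read 17707, 17559, 23593 and 17221 units on adult replicates 1 to 4, against 1733, 2418, 5651 and 9785 on P10 replicates 1 to 4. Every adult array was thus brighter without any scaling. miR-27a read 2253, 2249, 2694 and 1923 units in adult, against 380, 483, 1254 and 2413 in P10, so that P10 replicate 4 was brighter than 3 of the 4 adult arrays and P10 replicates 1 and 2 were the dimmest. miR-23a also overlapped, with adult replicate 4 at 3609 units below P10 replicate 4 at 3684. miR-27b and miR-24 did not (lowest adult 8162 and 6572, highest P10 5476 and 5067). The share of all tested miRNAs without overlap was not computed for unscaled signal. There the median log2 difference over all tested miRNAs was itself 0.94.

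The minor arms gave almost no signal. miR-23a*, miR-27a*, miR-23b*, miR-27b* and miR-24-1* were not well above background on any array with any probe. miR-24-2*, the arm that marks the a cluster copy of miR-24, was well above background on 2 of 4 adult arrays and on 0 of 4 P10 arrays, by 1 of its 4 probes. That probe read 22.3, 18.1, 30.1 and 18.3 units in adult, against 3.48, 0.875, 11.4 and 26.3 units in P10, unscaled. P10 replicate 4 exceeded 3 of the 4 adult arrays, all 8 values lay below the floor of the scaled data, and no fold is given. In the authors' deposited table, which lists miR-24-2* and no other minor arm of these hairpins, it read 4.11, 3.72, 4.28 and 3.795 in adult, against 3.61, 3.08, 3.27 and 3.86 in P10 (log2). Neither of the arms that would assign miR-24 to a cluster was therefore measured above background in both ages.

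The a and b clusters were compared by the log2 ratio of 2 probes within an array, which does not change with the factor that scales the array. The size of such a ratio depends on the probes, and only its difference between ages was read. miR-23b over miR-23a was 1.97, 2.02, 2.15 and 2.25 on adult replicates 1 to 4, against 1.40, 1.52, 1.55 and 1.41 on P10 replicates 1 to 4. The ages were apart by more than the spread within either. The ratio was 0.63 higher in adult (1.54-fold, two-sided exact permutation test, p = 0.0286, with none smaller possible from 70 splits, adjusted p = 0.0357 over 10 pairs, n = 4 per age). With P10 replicates 3 and 4 alone it was 0.62 higher, where 15 splits cannot reach the threshold. With cyclic loess over all probes it was 0.77 higher and did not pass (exact permutation p = 0.0571). Each of the 3 other pairings of probes gave a difference of 0.67 to 0.72.

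miR-27b over miR-27a was 1.86, 1.87, 1.92 and 2.19 in adult, against 1.67, 1.73, 1.32 and 1.18 in P10. The ages did not overlap, and the gap was narrow, P10 replicates 1 and 2, the dimmest arrays, being the highest of their age. The ratio was 0.48 higher in adult (1.40-fold, exact two-sided permutation p = 0.0286, adjusted p = 0.0357 over 10 pairs, n = 4 per age). Without any 1 adult array it no longer passed (0.41 to 0.52, exact permutation p = 0.0571 to 0.0857). It did not pass with P10 replicates 3 and 4 alone (0.71, exact permutation p = 0.0667, the smallest possible) or with cyclic loess over all probes (1.07, exact permutation p = 0.0571). In the authors' deposited table it was 0.097 higher, with quantile normalization 0.088 while cyclic loess on bright probes gave 0.24, and none of these passed (exact permutation p = 0.686, 0.571 and 0.257). miR-23b over miR-23a passed in those 3 settings at 0.24, 0.34 and 0.34 (exact permutation p = 0.0286 each).

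**Figure D2:**
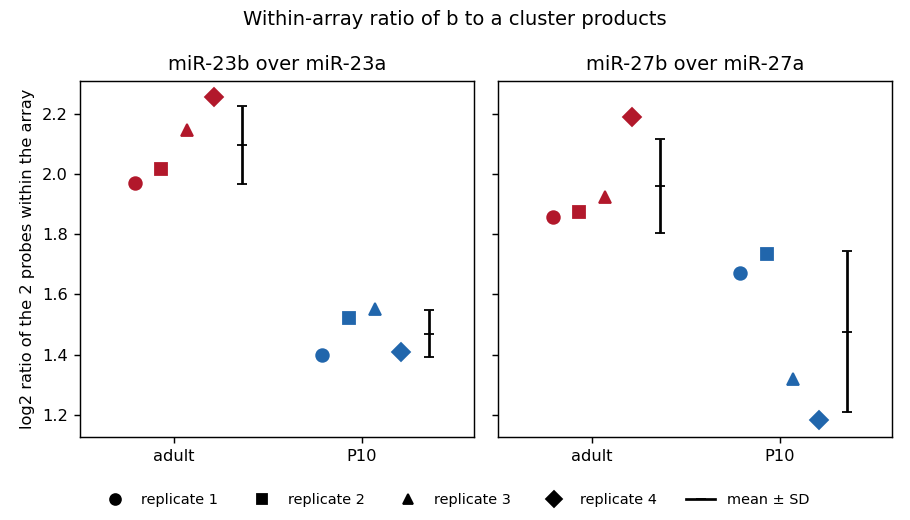
Log2 ratio of the brightest probes of miR-23b to miR-23a and of miR-27b to miR-27a within each array (y axis, which does not start at 0), for adult and P10 arrays (x axis), with a symbol per replicate and the mean ± SD beside it. The adult ratios of miR-23b to miR-23a lie at 1.97 to 2.25 and the P10 ratios at 1.40 to 1.55, and those of miR-27b to miR-27a at 1.86 to 2.19 and 1.18 to 1.73.

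With the percentile scaling, ratios within 1 cluster differed between ages too. miR-23a over miR-27a, both from the a precursor, was 0.26 higher in adult, and miR-23b over miR-27b, both from the b precursor, was 0.40 higher (exact permutation p = 0.0286 and adjusted p = 0.0357 over 10 pairs for each, n = 4 per age). miR-24 rose more than miR-27a (ratio 0.61 higher) and miR-23a (0.35 higher) and less than miR-23b, with miR-23b over miR-24 0.27 higher in adult (exact permutation p = 0.0286 each, n = 4 per age). With quantile normalization these 5 ratios read -0.075 for miR-23a over miR-27a, 0.18 for miR-23b over miR-27b, 0.035 for miR-23b over miR-24, 0.23 for miR-24 over miR-27a and 0.31 for miR-24 over miR-23a, and the last 2 still passed (exact permutation p = 0.0286 each). With cyclic loess over all probes none of the 5 passed (exact permutation p = 0.0571 to 0.657). In the authors' deposited table miR-23b over miR-24 passed (0.11, exact permutation p = 0.0286). In that table miR-24 over miR-27a and over miR-23a did not (0.19 and 0.13, exact permutation p = 0.0571 each), nor did miR-23a over miR-27a and miR-23b over miR-27b (0.055 and 0.20, exact permutation p = 0.429 each). miR-24 over miR-27b, at -0.42 to -0.20 in adult against -0.69 to -0.11 in P10, did not pass (exact permutation p = 0.371), nor did miR-27b over miR-23a (0.23 higher, exact permutation p = 0.171). Of the 10 pairs 8 had ages that did not overlap. These pairs are built from 5 values per array and are not independent, and the share over other pairs of miRNAs was not computed. Of single tested miRNAs 45.8% had ages that did not overlap, in either direction. The order of the 5 differences followed the brightness of the probes except for miR-24 and miR-27b. Over the 164 miRNAs above background on all arrays the difference between ages correlated with the mean level (Spearman rho 0.41, Pearson r 0.37 across miRNAs, which are not independent and share the arrays). The median difference was 0.38 for the brightest 41 of them, which include all 5 members, and -0.058 for the other 123. The part of brightness in the order of the members was not tested.

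**Figure D3:**
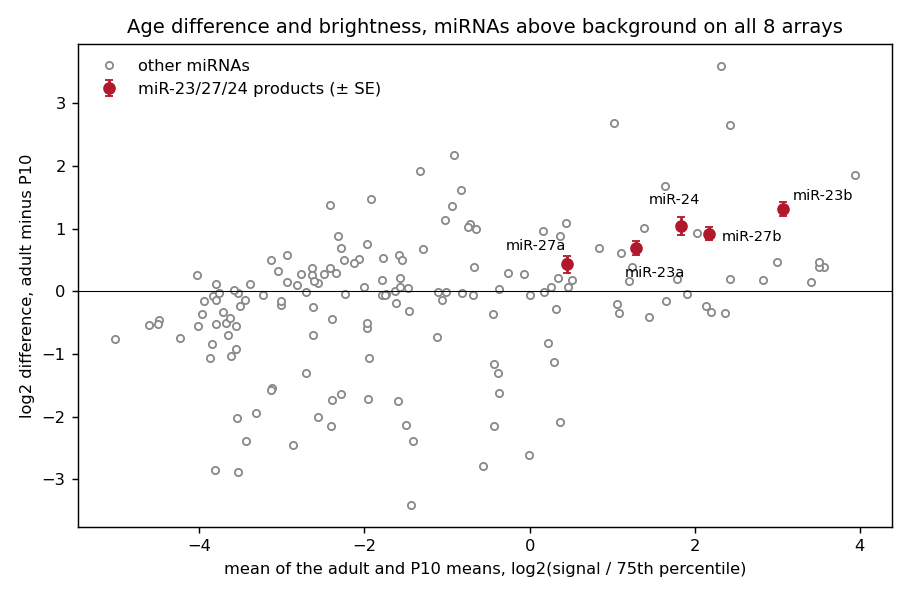
Log2 difference between adult and P10 (y axis) against the mean of the 2 age means (x axis, log2 signal over the array's 75th percentile) for the 164 miRNAs above background on all 8 arrays, with the 5 major miR-23/27/24 products filled (± SE). The 5 lie between 0.43 and 1.31 and to the right of most other miRNAs.

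The size of the rise depended on how arrays were scaled. Spike-in scaling divides by the 4 dmr control RNAs of the array, normexp models the local background, quantile normalization gives every array the same set of values, and cyclic loess removes trends with brightness between arrays. The median over all tested miRNAs was 0.45 with the percentile over all probes, 0.94 without scaling, 1.01 with spike-in scaling, -0.28 with normexp, 0.15 with quantile normalization, 0.19 with cyclic loess in either form and 0.15 in the authors' deposited table. Calls split into 65 higher and 48 lower here, 90 and 34 with the percentile over all probes, 58 and 17 without scaling, 42 and 7 with spike-in scaling, 33 and 47 with normexp and 7 and 13 with cyclic loess over all probes. Relative to the median of all, miR-23b was 1.33 higher here and 1.63 with normexp. It was 0.40 higher with quantile normalization and 0.45 in cyclic loess fitted to bright probes. Without scaling miR-23b was 1.33 above the median as well. A factor per array moves all values above the floor alike, so this match was fixed in advance. miR-27a was 0.44 above that median here, but 0.11 below it in cyclic loess over all probes and 0.043 below it where bright probes alone set the loess. All 5 major products had a difference above 0 in all 26 alternatives run. The alternatives that changed only the filter, the floor, the variance estimate or a block left each difference as it was. Others left out 1 array, which could not change a sign since the ages did not overlap. The 26 are thus not independent, and in several of them the median of all tested miRNAs was itself above 0. Without scaling 4 of the 5 were called, where 24.4% of all tested were called higher, and with spike-in scaling 3 (miR-23b, miR-27b and miR-24), where 17.6% were. Cyclic loess on bright probes called the same 3, where 29.8% of all tested were called higher.

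**Figure D4:**
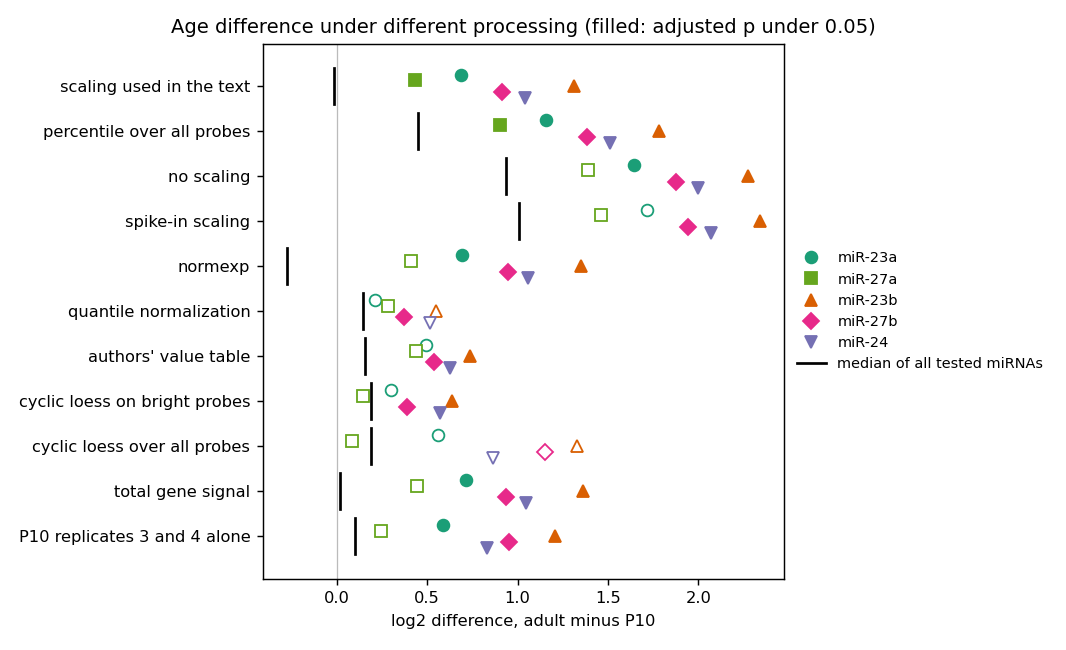
Log2 difference between adult and P10 (x axis) of the 5 major products under 11 ways of processing (rows), filled where the limma adjusted p was under 0.05, with a bar at the median of all tested miRNAs. miR-23b lies at 0.55 to 2.34 and miR-27a at 0.083 to 1.46, and 0 of the 5 are filled with cyclic loess over all probes, where 2.94% of all tested miRNAs were called higher.

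With quantile normalization only miR-27b kept its call (0.37, limma adjusted p = 0.0389), where 23.5% of all tested miRNAs were called higher in adult. miR-23b (0.55, adjusted p = 0.0563) and miR-24 (0.52, 0.0714) lost theirs, as did miR-23a (0.21) and miR-27a (0.28). In the authors' deposited table miR-23b was at 13.43 on all 4 adult arrays, against 12.2, 12.6, 12.8 and 13.1 on P10 replicates 1 to 4. Every column of that table holds the same set of values, so equal values there stand for equal ranks, not equal measured levels. The limma and permutation p-values of that table rest on such values. A limma fit of that table called miR-23b (0.74, adjusted p = 0.0127), miR-24 (0.63, 0.0213) and miR-27b (0.54, 0.0102), and not miR-23a (0.50, 0.0620) or miR-27a (0.44, 0.107), where 24.8% of tested miRNAs were called higher. With P10 replicates 3 and 4 alone, 4 of 5 members were called higher, where 30.7% of all tested were, at 1.21 for miR-23b, 0.95 for miR-27b, 0.83 for miR-24 and 0.59 for miR-23a, and miR-27a stood at 0.24 (adjusted p = 0.0672). With the position along the slide as a block the same 4 were called (21% of all tested were called higher). The difference at the 4 positions ran from 1.13 to 1.59 for miR-23b and from 0.22 to 0.61 for miR-27a. Its sign was fixed in advance for all 5 members, since every adult array lay above every P10 array.

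Islet preparations hold vessels, exocrine and blood cells as well, and fewer cells of a type and less RNA per cell cannot be told apart in such samples. For comparison with the marker counts, 27.3% of all tested miRNAs were called higher in adult and 20.2% lower. Of the endothelial markers, which matter here because these clusters are known from vessels, 0 of 2 were called. Their summed level (miR-126 and miR-126*) was 1.55 to 1.73 in adult and 1.23 to 2.23 in P10, so the ages overlapped. Smooth muscle markers had 1 of 2 tested called higher (summed level 2.16 to 2.68 in adult, 0.97 to 2.48 in P10). The mesenchymal markers fell in 3 of 3 tested (-0.56 to -0.24 in adult, 0.88 to 1.44 in P10), and the gut epithelium markers in 3 of 3, miR-215 being well above background on no adult array (-1.83 to -0.98 in adult, 0.14 to 3.75 in P10). Erythroid markers were called higher in 2 of 2 (-2.001 to -0.62 in adult, -2.77 to -1.98 in P10), though the ages overlapped for each. Leukocyte markers rose in 0 of 5 (0.68 to 0.99 in adult, -0.0054 to 2.03 in P10) and acinar markers in 0 of 2, while islet endocrine markers rose in 5 of 5 tested. The part of these cells in the values of the clusters was not tested.

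By the root mean square gap over the 8 arrays, after each miRNA was centred on its own mean, the profile closest to miR-23b among the 163 others was that of miR-24 (0.16), and then those of miR-98 (0.16) and miR-195 (0.19). Closest to miR-24 were miR-98 (0.077) and let-7e (0.11), with miR-23b the fifth. For miR-27b they were miR-185 (0.055) and miR-96 (0.076), for miR-23a miR-30b-5p (0.12) and miR-148b-3p (0.12), and for miR-27a miR-140 (0.089) and miR-107 (0.092). Of partners in the a precursor, miR-27a was at rank 3 for miR-23a and miR-23a at rank 6 for miR-27a. In the b precursor miR-27b was at rank 8 for miR-23b and miR-23b at rank 11 for miR-27b. The member closest to miR-27b was miR-23a of the other cluster, at rank 6. Of the paralogues, miR-23b was at rank 46 for miR-23a and miR-23a at rank 13 for miR-23b, while miR-27b was at rank 48 for miR-27a and miR-27a at rank 23 for miR-27b.

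miR-128 carries the seed bases of miR-27 shifted by 1 position, at its bases 1 to 7 (capitals).
miR-128: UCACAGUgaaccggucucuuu
It stood at -2.90, -2.96, -2.74 and -2.95 in adult, against -3.43, -3.15, -3.47 and -2.78 in P10. The ages overlapped and it did not pass (log2 difference 0.32, SE 0.17, adjusted p in limma 0.153), whereas miR-27a and miR-27b did. A difference between miR-128 and the miR-27 products was not tested.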

How the data were processed

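The deposited scanner files hold intensity values, which per the file headers come from version 10.7.3.1 of Agilent's Feature Extraction and include a processed signal that is already background-subtracted. The authors' deposited table holds log2 values of 311 miRNAs, with 1 set of sorted values in every column. Its normalization steps are not stated in what was used here, though such a shared set is what quantile normalization gives. The deposited table and quantile normalization are thus not independent settings. Here features called outliers by the software (2.34% to 3.65% per array) were left out, and no feature was saturated. Features of a probe were averaged, and a probe was well above background where most of its features were. Arrays were divided by the 75th percentile over 278 probes, values were raised to a common floor (-5.51, log2), and each miRNA was represented by its brightest probe. A miRNA was tested if above background on 4 or more of the 8 arrays (238 miRNAs) and fitted in limma 3.58.1 (R 4.3.3, adult minus P10, Benjamini-Hochberg, threshold 0.05), a step tested on simulated data. Within-array ratios were tested with exact permutation tests over arrays (Python 3.11.15). The number of arrays limits the precision, and p-values measure the spread between these arrays.

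The members, lists, tests and alternatives were chosen with earlier results of these data known. Named are all members, the 2 closest profiles to each major product, miR-128 and the marker lists. Of the listed markers, miR-216b, miR-486 and miR-155 had no probe under those names. The array does read miR-216b-5p, which was left out of the acinar list by its name. It stood at -4.49 in adult and -4.02 in P10 (log2 difference -0.47, adjusted p in limma 0.657). The planned normexp correction used median signals. Slide position was added after the files were seen, as were the alternatives for the 8 other ratios. No 2 arrays held the same values (highest correlation 0.997). RefSeq miRNA sequences were matched by name. The array design is on rn4, while coordinates given are those of GRCr8.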

Additional observations from a re-analysis of the deposited data

How the results depend on the processing

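The number of miRNAs called, 113, was 75 without scaling, 49 with spike-in scaling, 20 with cyclic loess over all probes, 179 with array weights and 84 to 138 without any 1 array. Of the 5 members 5 were called here, 3 with spike-in scaling, with cyclic loess on bright probes and in the authors' table, 1 with quantile normalization, 0 with cyclic loess over all probes (there limma gave 5 of 5 positive differences, adjusted p of 0.110 to 0.921 and 2 of 5 with an unadjusted p under 0.05) and 4 to 5 without any 1 array. miR-27a lost its call in 19 of 26 alternatives, miR-23a in 5, miR-23b and miR-24 in 2 each and miR-27b in 1. None changed sign, though several of the alternatives could not change a difference or its sign. Relative to the median of all tested miRNAs, miR-27a stood at -0.11 with cyclic loess over all probes and at -0.043 with it on bright probes. The ratio of miR-23b to miR-23a did not pass at 0.77 with cyclic loess over all probes or at 0.62 with P10 replicates 3 and 4 alone, and stood at 0.57 to 0.67 without any 1 array. The ratio of miR-27b to miR-27a did not pass at 0.088 with quantile normalization, 1.07 with cyclic loess over all probes, 0.24 with it on bright probes, 0.097 in the authors' table, or 0.71 with P10 replicates 3 and 4 alone, and stood at 0.39 to 0.57 without any 1 array, failing without any 1 adult array. Of the other ratios, miR-23a to miR-27a turned to -0.075 with quantile normalization, and miR-24 to miR-27b to -0.29 in cyclic loess over all probes and to -0.12 with P10 replicates 3 and 4 alone. The cause was not tested. The labels give no pairing by replicate number, and the deviations of same-numbered arrays correlated at 0.18, -0.090, 0.48 and -0.23. These were not compared with arrays of different numbers, so they cannot decide on a pairing. With the number as a block all the same, 95 miRNAs and 4 members (not miR-27a, adjusted p in limma 0.0995) were called. Of all tested miRNAs 21.4% were called higher in adult with that block. The ratios of miR-23b to miR-23a and of miR-27b to miR-27a were then 0.63 and 0.48 with an exact permutation p of 0.125, the smallest that 4 pairs allow. P10 replicates 3 and 4 alone cannot reach the threshold in a ratio either.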
